A study of Mus musculus with 4 samples.

Results

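The genes examined here set the shape of the mitochondrial network. They are 10 of the 20197 genes in the table, listed by name and role, with earlier results of these data known: the fusion genes *Mfn1*, *Mfn2* and *Opa1*, the fission genes *Dnm1l*, *Fis1*, *Mff*, *Mief1* and *Mief2*, and *Oma1* and *Yme1l1*, whose proteases cut OPA1. All 10 had a row with reads in every library. Their RNA was measured in 4T1, a wild-type mouse mammary carcinoma line that spreads to the lung. All cells were stained with MitoSpy Red at 20 nM, a dye that gathers in mitochondria according to their membrane potential (MMP), then trypsinized, and the brightest and dimmest 5% were sorted. Each sorted fraction gave 2 libraries, and each library came from 100000 cells of this single line, grown in serum-containing DMEM. Unstained or unsorted cells were not analysed here, so each value compares the extremes of a stained population with each other. The study counts the samples of a group as independent experiments, and no label says which high MMP and low MMP libraries came from the same experiment.

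Mitochondria fuse and divide continuously. Mitofusins join the outer membranes of neighbouring organelles and OPA1 joins the inner ones, while the dynamin DRP1, the product of *Dnm1l*, is drawn to the surface by adaptors such as MFF, the MiD proteins and FIS1 and pinches the organelle apart. OMA1 and YME1L cut OPA1 into short forms, and OMA1 is activated when the membrane potential collapses. Much of this control acts on the proteins by cleavage, phosphorylation and degradation, which RNA does not show.

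Recovered depth was 22591970 to 26395015 reads per library. Values below are normalized reads, which the authors scaled so that each library has the same total. A difference is the mean log2(value + 1) of the high MMP libraries less that of the low MMP libraries. The members had 155 to 7546 reads per library, and each ranked above at least 53.0% of the genes by mean value. All 7 epithelial markers were present (*Epcam*, *Cdh1*, *Cldn7* and 4 keratins, 47978 to 66360 normalized reads in sum), while the leukocyte markers summed to 1.77 or less and the endothelial ones to 6.20 or less, where *Cd3e*, *Itgam*, *Adgre1* and *Kdr* gave no value. The fibroblast markers summed to 334 and 374 in high and 548 and 604 in low MMP cells, nearly all of it *Pdgfra*, with *Lum* giving no value. In bulk RNA, fewer cells of a state and less RNA per cell cannot be told apart.

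Across the 10 genes the measured differences were small, but some intervals were wide (-0.74 to 0.39 for *Mief2*, -0.52 to 0.26 for *Fis1*). No member passed an adjusted p of 0.05 in limma, where the share of all genes called was 0.00% (0 of 20197). The smallest limma adjusted p over all genes was 0.472. No list could hold a call in this fit, so its 0 says nothing particular about the members. At an unadjusted p under 0.05 limma held 0 of the 10 members against 9.96% of all genes. On the recovered reads, the quasi-likelihood test of edgeR, fitted without a block, called 0 members (0.00% of all genes), edgeR with the replicate number as a block 0 (0.525% of all genes), and DESeq2 0 (0.954% of the 12365 genes it tested). At an unadjusted p under 0.05, edgeR with or without the block and DESeq2 also held 0 of the 10. Over all genes, edgeR held 1423 of 20197 without the block and 918 with it, and DESeq2 held 660. Beside these counts, 0 of 10 is not read as a result about the members. The smallest adjusted p among members in these 4 tests was 0.644 in limma, 0.689 in edgeR, 0.999 in edgeR with the block and 1.00 in DESeq2. All 10 differences lay within 0.2 of zero on the log2 scale, as did 75.1% of the 9999 genes averaging 100 or more normalized reads. The median difference was 0.02 for the 3 fusion genes, -0.03 for the 5 fission genes and 0.00 for the 2 protease genes, beside -0.03 over the 9999 genes. After median-of-ratios scaling the fusion and fission medians were 0.06 and 0.01, so the sign of the fission median depended on the scaling.

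In 4 members the ranges of the groups did not overlap. *Mfn2*, *Mff* and *Yme1l1* were higher in both high MMP libraries than in either low MMP library, and *Oma1* was lower. Of the 9999 better-expressed genes, 14.9% were higher and 22.7% lower in this sense, and counts of 3 and 1 among 10 members, beside these shares, say nothing particular about the list.

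**Figure D1:**
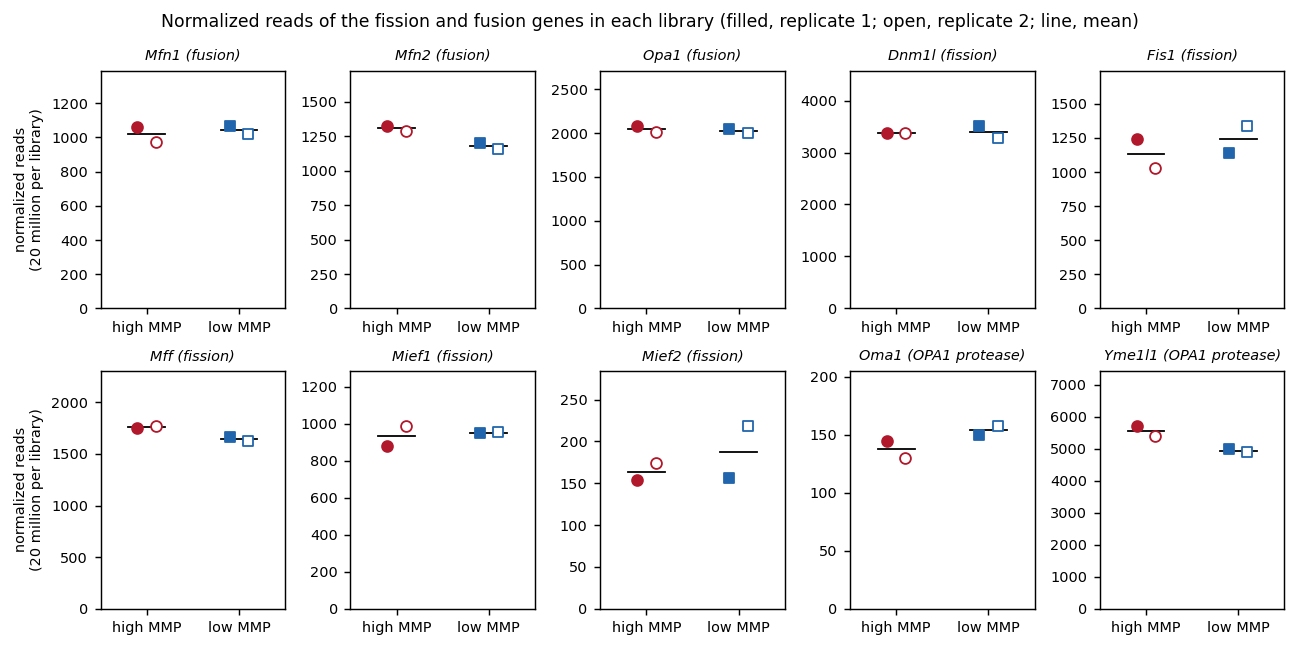
Normalized reads (vertical axes, from 0) of each member in the high MMP (red circles) and low MMP (blue squares) libraries, with filled symbols for replicate 1, open symbols for replicate 2 and a line at the mean of 2 libraries. *Mfn2*, *Mff* and *Yme1l1* sit slightly higher and *Oma1* slightly lower in high MMP cells. The groups overlap in the other members, of which *Fis1* and *Mief2* differ most between replicates on the log2 scale.

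The mitofusins, which tether and fuse outer membranes, were taken first. Positions are those of GENCODE M21 on GRCm38, and every member is a protein-coding gene. *Mfn2* (ENSMUSG00000029020, chromosome 4, 147873599 to 147904704, minus strand), which also links mitochondria to the endoplasmic reticulum, had 1328 and 1287 normalized reads in high MMP cells and 1203 and 1157 in low MMP cells. Both high values exceeded both low ones, by 10.8% on average (1308 ± 29.2 against 1180 ± 32.5, SD, n = 2 each). Its difference was 0.15 (SE 0.08, 95% interval -0.06 to 0.35), with a limma adjusted p of 0.652, and it was nearly equal in the same-numbered libraries (0.14 and 0.15). *Mfn1* (chromosome 3, 32529465 to 32579239, plus strand), the other mitofusin and the stronger tether, had 1062 and 973 in high and 1070 and 1018 in low MMP cells. These ranges overlapped, with a difference of -0.04 (SE 0.09, interval -0.28 to 0.20, limma adjusted p 0.958). The sign of *Mfn1* turned with median-of-ratios scaling (0.00341), so no direction is given for it. *Opa1* (chromosome 16, 29579334 to 29654884, plus strand), which fuses inner membranes and keeps the cristae closed, had 2087 and 2008 in high and 2045 and 2003 in low MMP cells. It was among the steadiest members, the highest library being 1.04 times the lowest. Its difference was 0.02 (SE 0.07, interval -0.19 to 0.22, limma adjusted p 0.994).

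Of the fission genes, *Dnm1l* (chromosome 16, 16312230 to 16358959, minus strand) encodes the dynamin that carries out the scission. It had 3383 and 3372 normalized reads in high MMP cells and 3519 and 3280 in low MMP cells. The high MMP values lay between the low MMP ones. Its difference was -0.01 (SE 0.08, interval -0.23 to 0.21, limma adjusted p 0.994), and it became 0.033 with median-of-ratios scaling. The interval corresponds to 0.852-fold to 1.16-fold, so a doubling or halving of *Dnm1l* RNA lay outside it. A part of 4.67% of its exon bases is shared with an antisense gene, and whether the counting used strand is not given in the sources used here.

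*Mff* (chromosome 1, 82724890 to 82752394, plus strand), the main outer-membrane receptor for DRP1, had 1756 and 1772 in high and 1664 and 1623 in low MMP cells. Both high values exceeded both low ones, by 7.34% on average. The difference was 0.10 (SE 0.07, interval -0.09 to 0.30, limma adjusted p 0.754). *Mief1* (chromosome 15, 80234018 to 80253371, plus strand), which encodes the adaptor MiD51, had 878 and 989 in high and 950 and 953 in low MMP cells, so that the high MMP libraries lay on either side of the low ones. Its difference was -0.03 (SE 0.09, limma adjusted p 0.972) and turned to 0.01 with median-of-ratios scaling. Small parts of the exons of both genes overlap other genes, 2.00% of *Mff* on the opposite strand and 2.63% of *Mief1* on the same strand.

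*Mief2* (chromosome 11, 60728398 to 60732951, plus strand), encoding MiD49, and *Fis1* (chromosome 5, 136953275 to 136966234, plus strand), a small tail-anchored adaptor, varied most. *Mief2* had 154 and 174 in high and 156 and 219 in low MMP cells. Its second low MMP library stood apart from the other 3, and the difference of -0.17 (SE 0.21, interval -0.74 to 0.39, limma adjusted p 0.871) was 0.07 without it. *Fis1* had 1243 and 1028 in high and 1139 and 1341 in low MMP cells. It was higher in high MMP cells between the libraries numbered 1 (0.13) and lower between those numbered 2 (-0.38), and its overall difference of -0.13 (SE 0.14, interval -0.52 to 0.26, limma adjusted p 0.855) was 0.01 without high MMP replicate 2. The replicate SD on the log2 scale was 0.26 for *Mief2* and 0.18 for *Fis1*, against counting errors of 0.10 and 0.04. For 7 of 10 members the replicate SD exceeded the counting error.

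The proteases that process OPA1 pointed in opposite directions. *Yme1l1* (chromosome 2, 23156369 to 23199260, plus strand), which encodes the constitutive inner-membrane protease, had 5718 and 5397 normalized reads in high and 4990 and 4895 in low MMP cells, 12.4% more on average (5557 ± 227 against 4942 ± 67.4, SD, n = 2 each). Both high values exceeded both low ones. The difference was 0.17 (SE 0.08, interval -0.06 to 0.40, limma adjusted p 0.644), which was the smallest p of the members. *Oma1* (chromosome 4, 103313812 to 103371868, plus strand), whose stress-activated protease cuts the long forms of OPA1, had 145 and 130 in high and 150 and 158 in low MMP cells. Both high values were below both low ones, but the gap between high MMP 1 and low MMP 1 was narrow. The 4 values rest on 191, 155, 172 and 178 reads. The exact Poisson 95% interval of high MMP 1, scaled like the values to 125 to 167 normalized reads, contains both low MMP values. The difference was -0.16 (SE 0.13, interval -0.52 to 0.19, limma adjusted p 0.788), which is not a detectable change at this depth and spread.

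**Figure D2:**
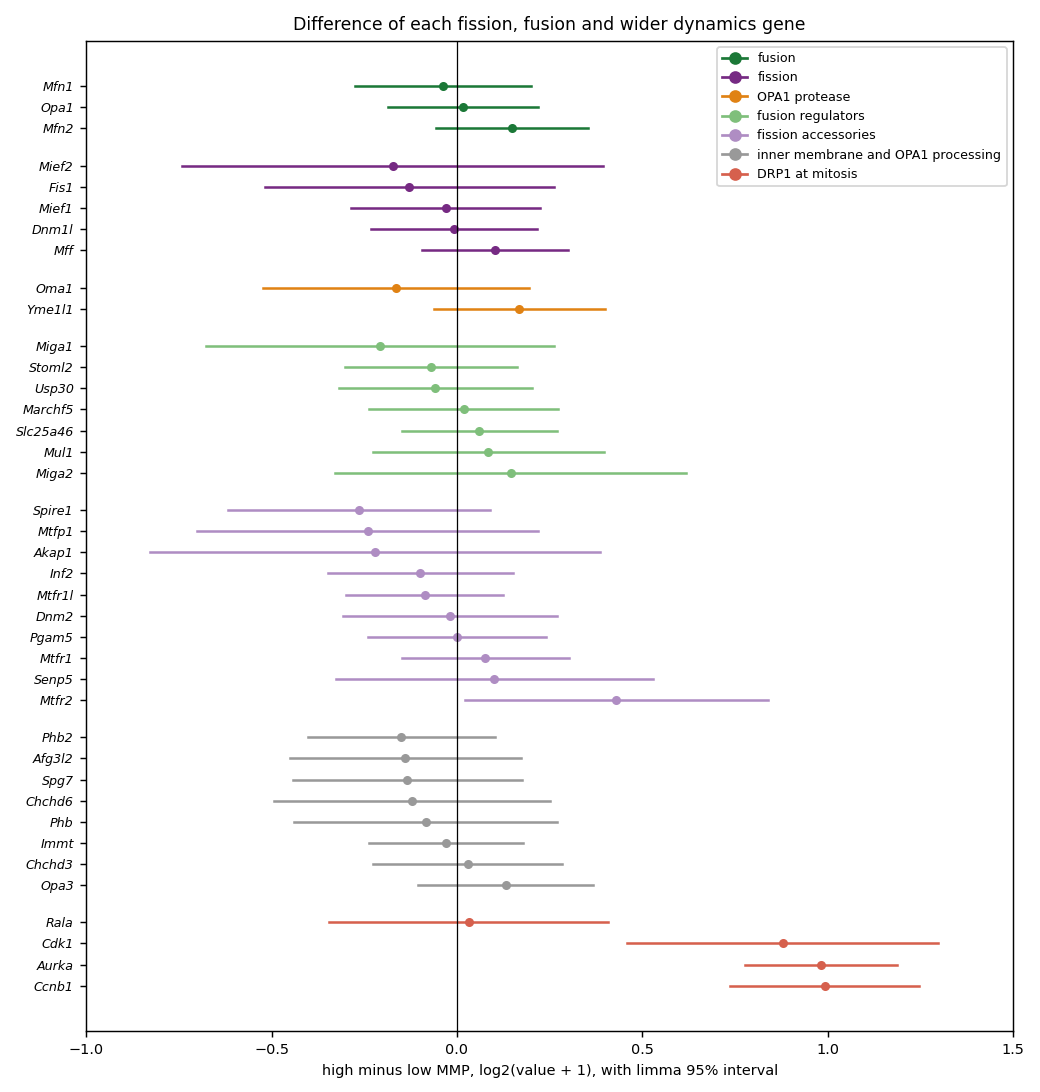
Difference of each gene (horizontal axis, log2(value + 1), high MMP less low MMP) with its 95% limma interval, grouped and coloured by role. The intervals of all 10 members include 0, and those of *Cdk1*, *Ccnb1*, *Aurka* and *Mtfr2* do not, although none of these passed the adjusted threshold in limma.

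Ratios within a library do not depend on the scaling between libraries. *Mfn2* over *Mfn1* was 1.25 and 1.32 in high MMP cells and 1.12 and 1.14 in low MMP cells. *Yme1l1* over *Oma1* was 39.5 and 41.6 in high and 33.3 and 31.1 in low MMP cells. Neither ratio overlapped between the groups, and the log2 shifts were 0.19 and 0.33. *Opa1*, whose product both proteases cut, separated the groups against each of them, since *Opa1* over *Yme1l1* was 0.365 and 0.372 in high and 0.410 and 0.409 in low MMP cells, whereas *Opa1* over *Oma1* was 14.4 and 15.5 in high and 13.6 and 12.7 in low MMP cells. These ratios share genes and were picked among members whose values were known, so they are given as a description, and an exact permutation test of 2 against 2 libraries could not give a p under 0.333. They compare reads and not molecules, since the genes differ in length. *Mff* over *Fis1* did overlap, at 1.41 and 1.72 in high and 1.46 and 1.21 in low MMP cells. So did *Mief1* over *Mief2* (5.71 and 5.68 in high, 6.09 and 4.36 in low MMP cells). *Dnm1l* over *Opa1* overlapped too (1.62 and 1.68 in high, 1.72 and 1.64 in low MMP cells). No share of separating ratios over gene pairs in general was taken.

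Fusion was then set against fission. The index, the mean log2(value + 1) of the 3 fusion genes minus that of the 5 fission genes, was 0.52 and 0.43 in high MMP cells and 0.47 and 0.30 in low MMP cells. The groups overlapped. The difference of 0.09 was of the size of the replicate SD of the index, 0.10, and fell to 0.01 without low MMP replicate 2 and reached 0.17 without low MMP replicate 1. No shift of RNA from fission to fusion, or the reverse, stood out from the spread between replicates.

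**Figure D3:**
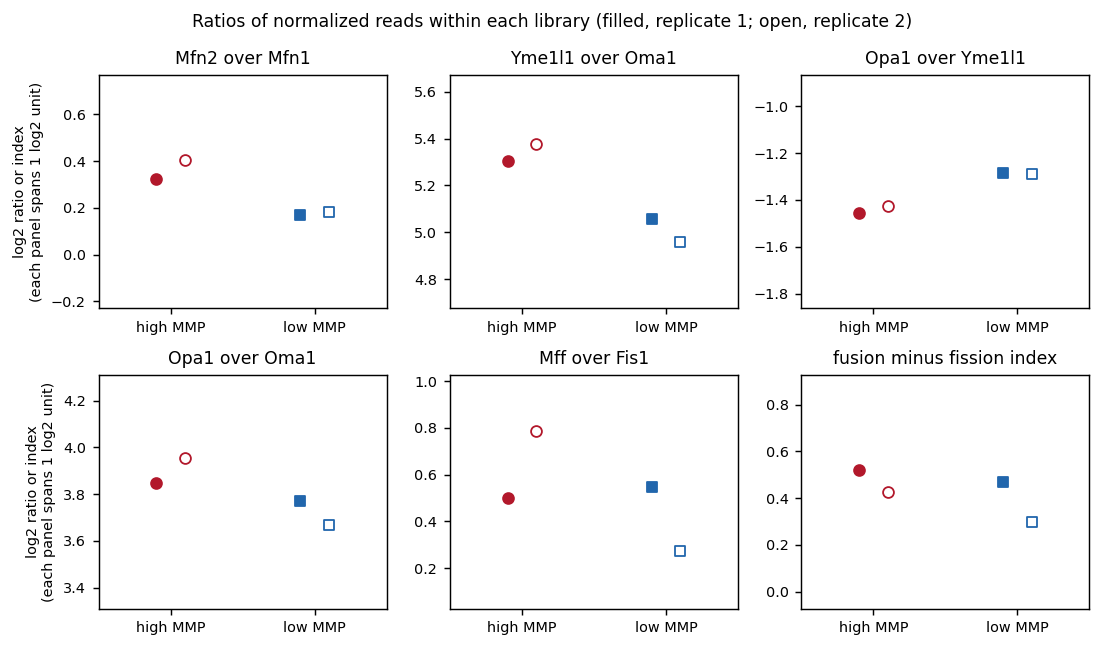
Log2 ratios of normalized reads of gene pairs, and the fusion minus fission index, in each library (vertical axes, each spanning 1 log2 unit; red circles high MMP, blue squares low MMP, filled replicate 1, open replicate 2). *Mfn2* over *Mfn1*, *Yme1l1* over *Oma1* and both *Opa1* ratios separate the groups, while *Mff* over *Fis1* and the index overlap.

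The upstream sequences of *Mfn2* and *Mfn1* and of *Yme1l1* and *Oma1*, whose ratios did not overlap between the groups, are shown. That of *Cdk1*, a gene of the wider list with a larger difference, is set beside them. None of these members was called, and no link between promoter sequence and RNA level was tested. Each window is from RefSeq on build GRCm38.p6 and runs from 250 bases before to 50 after a transcript start. RefSeq lists 3 windows for *Mfn2* and 2 each for *Dnm1l*, *Fis1* and *Mff*, and the one nearest to the start annotated in GENCODE was used. The windows are chr4:147904649-147904948 on the minus strand for *Mfn2*, chr3:32529232-32529531 on the plus strand for *Mfn1*, chr2:23156255-23156554 on the plus strand for *Yme1l1*, chr4:103313596-103313895 on the plus strand for *Oma1* and chr10:69352863-69353162 on the minus strand for *Cdk1*. Capitals mark the CCAAT box (CCAAT), the cell cycle element CHR (TTTGAA) and the ETS core (CCGGAA), searched on both strands.
Mfn2: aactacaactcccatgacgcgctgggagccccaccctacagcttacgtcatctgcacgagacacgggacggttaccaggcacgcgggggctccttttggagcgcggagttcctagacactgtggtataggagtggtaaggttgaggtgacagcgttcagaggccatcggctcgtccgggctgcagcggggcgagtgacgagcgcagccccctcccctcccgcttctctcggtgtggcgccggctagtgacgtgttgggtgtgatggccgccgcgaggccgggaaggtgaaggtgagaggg
Mfn1: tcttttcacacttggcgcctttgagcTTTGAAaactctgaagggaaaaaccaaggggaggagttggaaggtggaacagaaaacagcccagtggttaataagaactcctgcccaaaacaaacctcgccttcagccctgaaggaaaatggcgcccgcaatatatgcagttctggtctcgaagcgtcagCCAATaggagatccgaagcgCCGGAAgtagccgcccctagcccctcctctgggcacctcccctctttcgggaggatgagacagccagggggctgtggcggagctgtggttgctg
Yme1l1: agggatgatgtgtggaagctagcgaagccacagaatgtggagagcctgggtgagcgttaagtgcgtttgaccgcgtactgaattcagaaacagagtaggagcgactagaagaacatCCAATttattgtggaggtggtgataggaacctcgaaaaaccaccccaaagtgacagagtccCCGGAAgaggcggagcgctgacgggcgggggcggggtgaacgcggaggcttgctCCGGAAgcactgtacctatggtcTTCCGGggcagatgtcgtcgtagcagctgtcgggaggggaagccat
Oma1: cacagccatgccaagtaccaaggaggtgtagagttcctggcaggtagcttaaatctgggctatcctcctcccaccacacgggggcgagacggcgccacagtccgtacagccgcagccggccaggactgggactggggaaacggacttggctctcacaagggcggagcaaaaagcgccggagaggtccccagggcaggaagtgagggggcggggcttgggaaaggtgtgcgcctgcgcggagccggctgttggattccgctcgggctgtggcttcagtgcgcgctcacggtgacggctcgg
Cdk1: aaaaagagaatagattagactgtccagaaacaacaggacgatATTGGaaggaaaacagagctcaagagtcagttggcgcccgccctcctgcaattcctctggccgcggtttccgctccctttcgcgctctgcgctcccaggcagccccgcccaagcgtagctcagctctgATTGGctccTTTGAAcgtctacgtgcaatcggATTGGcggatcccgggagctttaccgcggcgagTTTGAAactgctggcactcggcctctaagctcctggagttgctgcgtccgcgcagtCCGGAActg

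Neither *Mfn2* nor *Oma1* had any of these 3 motifs in the window, *Mfn1* had 1 match of each, *Yme1l1* had 1 CCAAT box and 3 ETS cores, and *Cdk1* had 3 CCAAT boxes, 2 CHR elements and 1 ETS core. All 10 members matched a RefSeq window. The CCAAT box was found in 7 of 10 member windows and in 37.4% of all 32851 windows of the same length, the ETS core in 4 of 10 (14.9% of all) and CHR in 2 of 10 (17.9% of all). Of 4 further motifs, the GC box (GGGCGG) was in 9 of 10 (35.7% of all), the NRF1 core (GCATGCGC) and the E-box (CACGTG) in 1 of 10 each (2.71% and 7.15%), and the E2F site (GGCGGGAA) in none (2.19%). No match overlapped a match to another motif. The windows of all members were also richer in CpG than the median window (observed over expected 0.523 to 1.03, against 0.384). No share over windows of like CpG content was taken, so the motif counts are not read as traits of these genes. The *Mfn2* window shown held none of the 7 motifs, and of its 2 other windows 1 held a GC box. The counts change with the window for *Dnm1l*, *Fis1* and *Mff* too, where the other window of each lacked the CCAAT box.

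The members span an order of magnitude in level. Per kilobase of merged exon (GENCODE M21), *Fis1* came first at 693 normalized reads on average over the 4 libraries, followed by *Yme1l1* at 655 and *Dnm1l* at 651, and the ranges of these neighbours overlapped. *Opa1* at 259 and *Mfn2* at 239 formed the next pair, also overlapping, then *Mff* at 175 and *Mfn1* at 169. *Mief1* stood alone at 116. *Oma1* at 67.9 and *Mief2* at 64.7 were lowest and overlapped. Per kilobase, the scission dynamin thus stood above the inner-membrane fusion gene, and the constitutive protease far above the stress-activated one, with no overlap between libraries in either case. With the longest coding transcript as the length, a choice made after seeing the data, *Mff* moved from place 6 to 4, at 816 normalized reads per kilobase, since its merged exons (9757 bases) are far longer than that transcript (2087 bases), and *Opa1* and *Mfn2* each moved down by 1. Which transcript the reads came from is not shown by counts per gene.

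**Figure D4:**
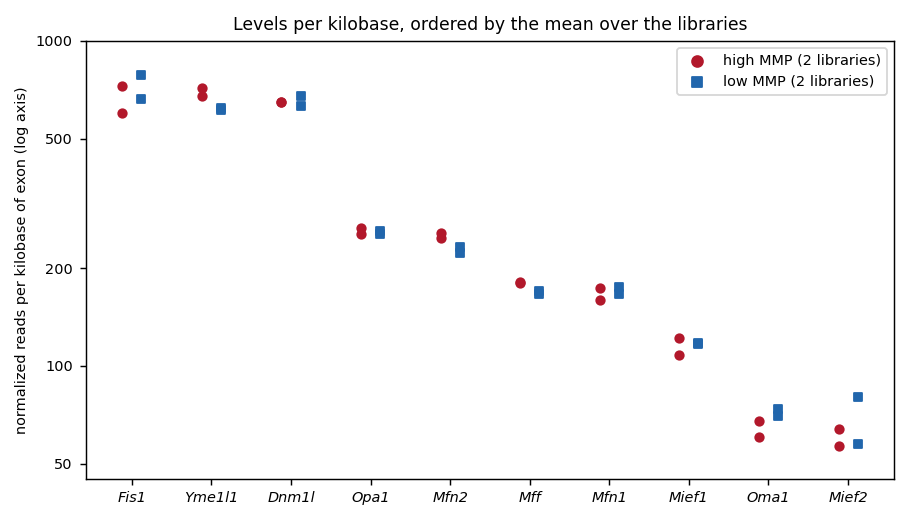
Normalized reads per kilobase of merged exon (vertical log axis) for each member in 2 high MMP (red circles) and 2 low MMP (blue squares) libraries, ordered by the mean. *Fis1*, *Yme1l1* and *Dnm1l* lie near 650 to 693 on average and *Oma1* and *Mief2* near 65 to 68. The spread between groups is small beside the distance between the highest and lowest genes, while several neighbours in the order overlap.

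Around these members, 29 of 31 further genes of mitochondrial dynamics had values. limma called 0 of them at an adjusted p of 0.05 and held 4 at an unadjusted p under 0.05, and edgeR with no block likewise called 0 and held the same 4. Over all genes limma held 9.96% at that unadjusted p. edgeR called 3 of the 29 when the replicate number was a block (0.525% of all genes), and DESeq2 also called 3 (0.954% of all genes tested). All 3 came from the group that acts on DRP1 at mitosis, described below, and no other wider gene was called in these fits. The list was made with earlier results of these data known, so setting these counts beside the shares does not test it. Of the 7 regulators of fusion, *Miga1* (mitoguardin, which promotes fusion) had the lowest p, with 1484 and 2017 normalized reads in high and 2077 and 1920 in low MMP cells. The ranges overlapped and the difference was -0.21 (SE 0.17, limma adjusted p 0.796). Of the 8 genes of the inner membrane and OPA1 processing, the prohibitin *Phb2*, a scaffold that stabilizes long OPA1, had 4521 and 4078 in high and 4732 and 4800 in low MMP cells. Both high values were below both low ones, with a difference of -0.15 (SE 0.09, limma adjusted p 0.711). Medians were 0.02 for the fusion regulators, -0.05 for the 10 fission accessories and -0.10 for the inner membrane genes, with no call in any.

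Among the fission accessories, *Mtfr2* had the lowest p. It is a mitochondrial fission regulator that is expressed in proliferating cells, and it had 347 and 403 normalized reads in high and 252 and 305 in low MMP cells. Both high values exceeded both low ones, with a difference of 0.43 (SE 0.15, interval 0.02 to 0.84). The limma adjusted p was 0.477, and it was 0.689 in edgeR, 0.710 in edgeR under the replicate block and 0.719 by DESeq2. The relatives *Mtfr1* and *Mtfr1l*, named after their values were seen, differed by 0.08 and -0.09.

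Genes that act on DRP1 at mitosis differed most within the wider list. CDK1 with cyclin B1 phosphorylates DRP1 when the cell enters mitosis, and Aurora A acts upstream of it through RALA. *Aurka*, the gene of lowest p in this group, had 2892 and 2902 normalized reads in high and 1429 and 1502 in low MMP cells. Its difference was 0.98 (SE 0.08), with adjusted p of 0.472 in limma, 0.484 in edgeR, 0.000179 in edgeR under the replicate block and 4.50e-09 by DESeq2. *Ccnb1* and *Cdk1*, named after their values were seen, were the other 2 genes called. *Ccnb1* had 5351 and 5764 in high and 2675 and 2914 in low MMP cells, and *Cdk1* had 7920 and 7188 in high and 3627 and 4642 in low MMP cells. Both were higher in high MMP cells, by 0.99 (SE 0.09) and 0.88 (SE 0.15), with adjusted p in limma of 0.472 for each. The edgeR adjusted p was 0.484 for *Ccnb1* and 0.580 for *Cdk1* with no block, and 0.000319 and 0.00370 under the replicate block. DESeq2 gave 1.75e-09 and 1.39e-05. *Rala* was not called and differed by 0.03. General markers of mitotic cells mostly differed likewise. All 8 summed to 76088 and 81734 in high and 48157 and 49745 in low MMP cells, and *Top2a* made the largest part. Of the 8, 6 were higher without overlap, beside 14.9% of the 9999 better-expressed genes. *Mki67* overlapped (11214 and 15182 in high, 14609 and 13537 in low MMP cells) and *Ccnb2* was lower. The part of mitotic cells in the differences of *Aurka*, *Ccnb1* and *Cdk1* was not tested. *Dnm1l*, whose product CDK1 phosphorylates, had its high MMP values inside the low MMP range, as given above.

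**Figure D5:**
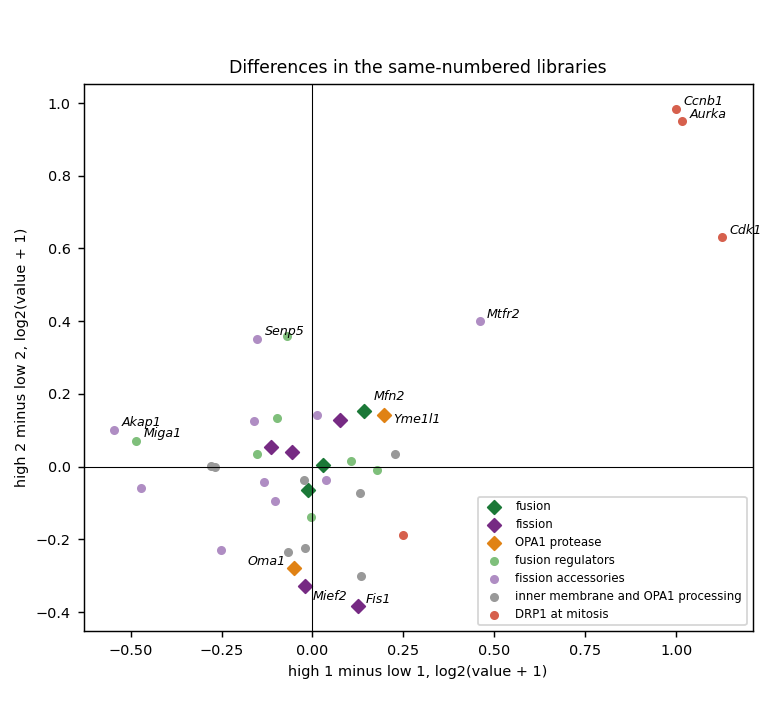
Differences between the libraries numbered 1 (horizontal axis) and those numbered 2 (vertical axis), on the log2(value + 1) scale, for the 10 members (diamonds) and 29 wider genes (circles), coloured by role. *Aurka*, *Ccnb1*, *Cdk1* and *Mtfr2* lie up and to the right, the members lie near the centre, and *Fis1* has opposite signs in the 2 pairs (0.13 and -0.38).

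By same-numbered libraries, with the scaling of the authors, high MMP exceeded low MMP in both pairs for 4 members (*Mfn2*, *Opa1*, *Mff*, *Yme1l1*), was below it in both for 3 (*Mfn1*, *Mief2*, *Oma1*) and changed sign for 3 (*Dnm1l*, *Fis1*, *Mief1*). Of the 9999 better-expressed genes, 1787 were higher in both, 2644 lower in both and 5568 changed sign. These counts depend on which libraries are paired. With the numbers crossed, *Opa1* (0.06 and -0.03), *Mfn1* (0.06 and -0.14) and *Mief2* (-0.50 and 0.16) changed sign and *Fis1* was lower in both (-0.11 and -0.15). The overall signs of *Mfn1*, *Dnm1l* and *Mief1* turned with median-of-ratios scaling. The pattern of *Yme1l1* was shared widely. The 3 genes whose 4 centred log2 values lay nearest to its own were *Bcs1l*, which assembles respiratory complex III, *Gosr1*, a Golgi SNARE, and *Chordc1*, a cochaperone of HSP90, at root mean square distances of 0.00595, 0.00711 and 0.00750 over 4 libraries. Within a distance of 0.05 there were 398 of 9999 genes, so the likeness is not particular to these 3.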

How the data were processed

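RNA of 2 high MMP and 2 low MMP samples of sorted 4T1 cells was sequenced from 200 ng per stranded library. Per the methods, the authors used STAR for alignment to GRCm38 (mm10) transcripts and for quantification per gene, and the submitters' processing notes also name HTSeq. Versions are not given in the sources used here. The authors scaled the counts by library size. What they deposited is a normalized signal for each gene, with the same column total in all libraries, and 0 rows were above 0 in fewer than 2 libraries. Every value was a whole multiple of the value of 1 read (100% of values within 0.05 of a whole read), so reads were recovered for edgeR and DESeq2. The table held 20197 genes and 0 columns of no sample, and 19993 identifiers had a GENCODE M21 symbol.

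A two-sided moderated test (limma 3.58.1 in R 4.3.3, variance trend on) was run on log2(value + 1), and p-values were adjusted by Benjamini-Hochberg over all 20197 genes. A fold change on this scale understates that of low genes. Alternatives were other pseudocounts, a filter at a mean of 10, median-of-ratios and quantile scaling, no trend, the replicate block, edgeR 4.0.16 and DESeq2 1.42.0 on the recovered reads, and leaving out each library. The tests were checked on simulated counts with the same spread beyond counting error for all genes and no replicate structure. There edgeR (with and without the replicate block) and DESeq2 recovered most of the large changes and few of the small ones. limma called neither. The members here differ in replicate spread, so the simulation does not show what the tests would recover in these libraries. A lack of calls does not show a lack of change. Members were all named. Of the wider list the gene of lowest raw p in each of its 4 groups was named, and any further gene is stated to be a later choice. The members and lists were chosen with earlier results of these data known. Counting intervals cover counting error only. Of the lists, 1 gene of the wider list and 1 marker are not reported here.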

Additional observations from a re-analysis of the deposited data

How the results depend on the processing

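No member was called under any of the 16 alternatives, with adjusted p from 0.283 upward in limma, edgeR and DESeq2. The count over all genes was 0 in limma under each of its settings and in edgeR with no block (1423 genes at an unadjusted p under 0.05), but 106 in edgeR with the replicate block and 118 in DESeq2, and the wider list had 3 calls in each of these. Same-numbered libraries tended to deviate in opposite directions (correlation of their deviations -0.421 over 12902 genes). These deviations give no sign that a number marks a shared experiment, but with 2 libraries a group they cannot exclude it. The labels do not state it either. Results with and without the replicate block carry this limit. With crossed numbers as the block, chosen after seeing the data, edgeR called 733 genes, 4 of the wider list and 0 members. In limma the replicate block left all counts at 0.

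*Mfn2*, *Mff*, *Yme1l1* and *Oma1* kept their sign under all 16 alternatives. All 19 results of opposite sign, out of 160 over the 10 members, came from the other 6. With median-of-ratios scaling *Mfn1* was 0.0034, *Dnm1l* 0.033 and *Mief1* 0.011, and the medians were 0.058 for fusion and 0.011 for fission genes. In edgeR with no block these 3 genes were 0.00064, 0.028 and 0.0091, and in DESeq2 0.0048, 0.032 and 0.013. With the replicate block in edgeR *Dnm1l* was 0.029 and *Mief1* 0.0071, and with crossed numbers 0.029 and 0.0072. Leaving out 1 library gave -0.10 to 0.025 for *Mfn1*, -0.011 to 0.044 for *Opa1*, -0.059 to 0.042 for *Dnm1l*, -0.27 to 0.0081 for *Fis1*, -0.12 to 0.055 for *Mief1* and -0.42 to 0.068 for *Mief2*, and -0.033 to -0.0061 and -0.011 to 0.044 for the fission and fusion medians. The cause of these sign changes was not tested. Each value of opposite sign was smaller than the SE of its gene in limma. With 2 libraries a group the spread between replicates limits what can be detected for *Fis1* and *Mief2*, and the depth for *Oma1*.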
